A study of Mus musculus with 32 samples.

Results

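The 45 genes described here encode the receptors for glutamate, the main excitatory transmitter of the brain, and for GABA, its main inhibitory transmitter. They are every gene of the 27179 in the deposited table whose symbol names an AMPA, NMDA, kainate or metabotropic glutamate receptor, a GABA-A subunit or a GABA-B subunit. The glutamate side has 24 genes and the GABA side 21. DNA methylation was read in mouse brain, heart, kidney and liver by MeDIP-seq, in which an antibody to 5-methylcytosine (5mC) captures methylated DNA for sequencing. Each organ was kept as FFPE tissue (fixed in formalin and embedded in paraffin) or flash frozen, which gives FFPE brain, frozen brain, FFPE heart, frozen heart, FFPE kidney, frozen kidney, FFPE liver and frozen liver. The labels give no strain, age, sex, allele or agent beyond fixation, and they list 2 samples with the 5mC antibody for each of these 8 groups. The deposited table has 1 column for each group, called a library here, and its column names state neither the antibody nor a replicate number. It was read as 5mC signal, and every result rests on that reading.

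AMPA, NMDA and kainate receptors are cation channels opened by glutamate, and the metabotropic receptors act through G proteins. GABA-A receptors are chloride channels built from subunits of several classes, and GABA-B receptors are G protein-coupled pairs of Gabbr1 and Gabbr2. Methylation of CpG-rich promoters usually goes with silence of a gene, whereas methylation inside gene bodies is common in transcribed genes. A MeDIP value per gene sums the captured fragments over whatever part of the gene was counted. Whether exons or whole bodies were counted is not stated, so signal at a promoter and inside the gene cannot be separated.

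All 45 genes passed the filter of 1 or more CPM (reads scaled to a library size) in 2 or more libraries. The libraries held 2164158 to 3699218 reads on genes, and the median receptor gene had 91 to 194 reads in a library. The size used for CPM was not this total. It was 3348345 in FFPE brain (3050175 reads on genes) and 2640038 in FFPE liver (3102535 reads). Size exceeded the reads in brain and heart libraries, which lowers their CPM, and was below them in kidney and liver libraries, which raises it. Scaling to the reads on genes instead was not tested. A value under 1 CPM occurred once, for Gabra3 in FFPE kidney, with 1 read. A difference is log2 of the CPM in an organ minus the mean of the other 3 organs, with preservation in the fit, and a gene was called at an adjusted p under 0.05 (limma, Benjamini-Hochberg over the 25982 genes tested). Each organ had 1 FFPE and 1 frozen library and no replicate, so the spread behind each p is what organ and preservation leave unexplained, and nothing in the labels says that libraries came from separate animals. Without the trend of variance on signal that the fit uses, no gene of the table was called in any of the 4 organ comparisons, although 9540 genes in brain and 8460 in liver had an unadjusted p under 0.05 with it. These are bulk tissues, so a different mix of cells and a different level of methylation per cell cannot be told apart.

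Genes that define hepatocytes had lower 5mC signal in liver, with 9 of 10 called lower, against 7.42% of all genes, and 4 of the 10 were called higher in brain, against 8.61%. Cardiomyocyte genes were called lower in heart in 3 of 8 cases, against 1.97% of all genes, and higher in liver in 3 of 8, against 11.8%. Oligodendrocyte genes were called lower in brain in 2 of 5 cases, against 12.8% of all genes. Of 10 neuron genes, 3 were called lower in brain, against 12.8% of all genes, and 1 higher, against 8.61%. No astrocyte gene of 5 was called in brain, with 4 at an unadjusted p under 0.05 in limma. Of those 4 genes, 3 had more signal in brain and 1 had less, and the median difference of all 5 was 0.54. In kidney, no proximal tubule gene of 7 and no distal nephron gene of 5 was called, with 0 and 1 at an unadjusted p under 0.05. Leukocyte genes, which mark blood cells in any organ, were called higher in brain in 2 of 5 cases (8.61% of all genes) and lower in liver in 1 (7.42%). Endothelial genes were called higher in brain in 1 of 4 cases (8.61% of all genes) and lower in heart in 2 (1.97%). In liver 2 of these 4 were called higher (11.8% of all genes) and 1 lower (7.42%). The part of cell mix in the receptor results was not tested.

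In brain, 9 receptor genes were called lower and 3 higher than in the other 3 organs. The 9 are 20.0% of the receptor genes, against 12.8% of all genes called lower, and the 3 are 6.67%, against 8.61% of all genes called higher. Lower signal was found in Grm4, Grik5, Grin3b, Gabbr1, Grm3, Gabbr2, Grin2b, Grm2 and Grm6, and higher signal in Gabra4, Grm5 and Grik1. Of the 24 glutamate receptor genes, 7 were called lower (29.2%, against 12.8% of all genes) and 2 higher (8.33%, against 8.61%). The 19 GABA-A subunit genes gave 1 higher call (8.61% of all genes) and no lower call (12.8% of all genes) in limma. Among them 1 gene (Gabrb1) had an unadjusted p under 0.05 downward. The median difference of the 45 genes was -0.01, against 0.11 for all genes tested. Liver gave 9 receptor genes called higher (20.0%, against 11.8% of all genes) and 4 called lower (8.89%, against 7.42%). Brain and liver are each part of the other's comparison, so opposite signs in them are not separate observations.

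**Figure D1:**
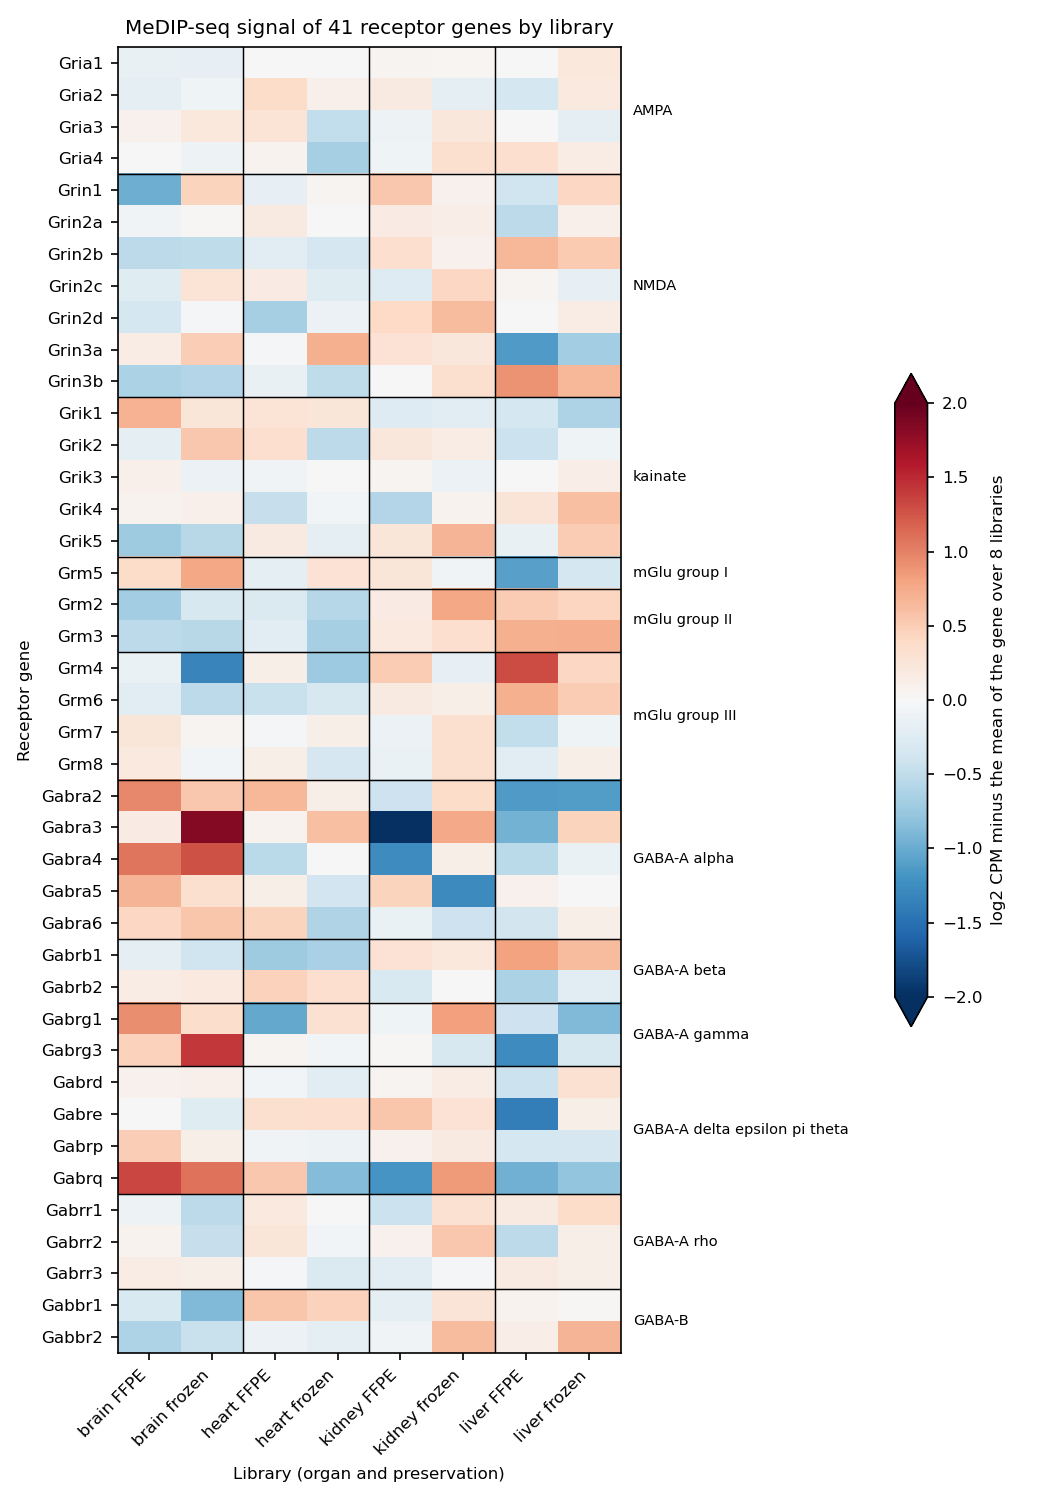
Heat map of 41 receptor genes (rows, by receptor class) in the 8 libraries (columns, FFPE and frozen for each organ). Colour is log2 CPM minus the mean of that gene over the 8 libraries, with the colour scale ending at its marked limits. The deepest single departure is Gabra3 in FFPE kidney, and Gabra4 stands above its mean in both brain libraries.

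The brain and liver differences followed how much signal a gene had. Over the 45 genes the brain difference and the mean signal had a Pearson r of -0.82 and a Spearman rho of -0.77, and the liver difference an r of 0.75 and a rho of 0.78. These points share the same 8 libraries and are given as a description. Over all 25982 genes r was -0.55 in brain and 0.45 in liver. In the fifth of genes with the highest signal, 40.9% of all genes were called lower in brain, against 8 of 19 receptor genes there (42.1%), and 39.3% of all genes were called higher in liver, against 9 of 19 receptor genes (47.4%). Of those genes 3.54% were called higher in brain and 3.56% lower in liver, with no receptor gene among them. The fifth of genes just below it held 15 receptor genes, so 1 gene makes 6.67% and the shares there are not read as a departure. There 1 of 15 receptor genes was called lower in brain (6.67%, against 16% of all genes) and 2 higher (13.3%, against 8.41%), with a median of 0.20, against -0.14 for all genes. In liver 3 of the 15 were called lower (20%, against 7.72%) and none higher (14.5% of all genes), with a median of -0.27, against 0.08. Mean signal here is per gene and not per length. The libraries also differed in spread: the SD of log2 CPM over tested genes was 2.02 in FFPE brain and 1.75 in frozen brain, against 2.24 and 1.99 in FFPE and frozen heart, 2.34 and 2.67 in FFPE and frozen kidney, and 2.60 and 2.49 in FFPE and frozen liver. The part of this spread in the calls was not tested beyond quantile normalization, which gives all libraries the same spread of values and left 4 receptor genes called lower in brain (Grm4, Grin3b, Grik5 and Gabbr1, against 11% of all genes) and 5 called higher (Gabra4, Grm5, Grik1, Grik3 and Gabrp, against 9.97%). In liver it left Grm4, Grin3b, Grm3 and Gabrb1 higher (5.1% of all genes) and Grm5, Grik1 and Gabrb2 lower (4.98%). In heart it left Gabrb1 lower (1.34% of all genes) and added Gabbr1 higher (0.647%).

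**Figure D2:**
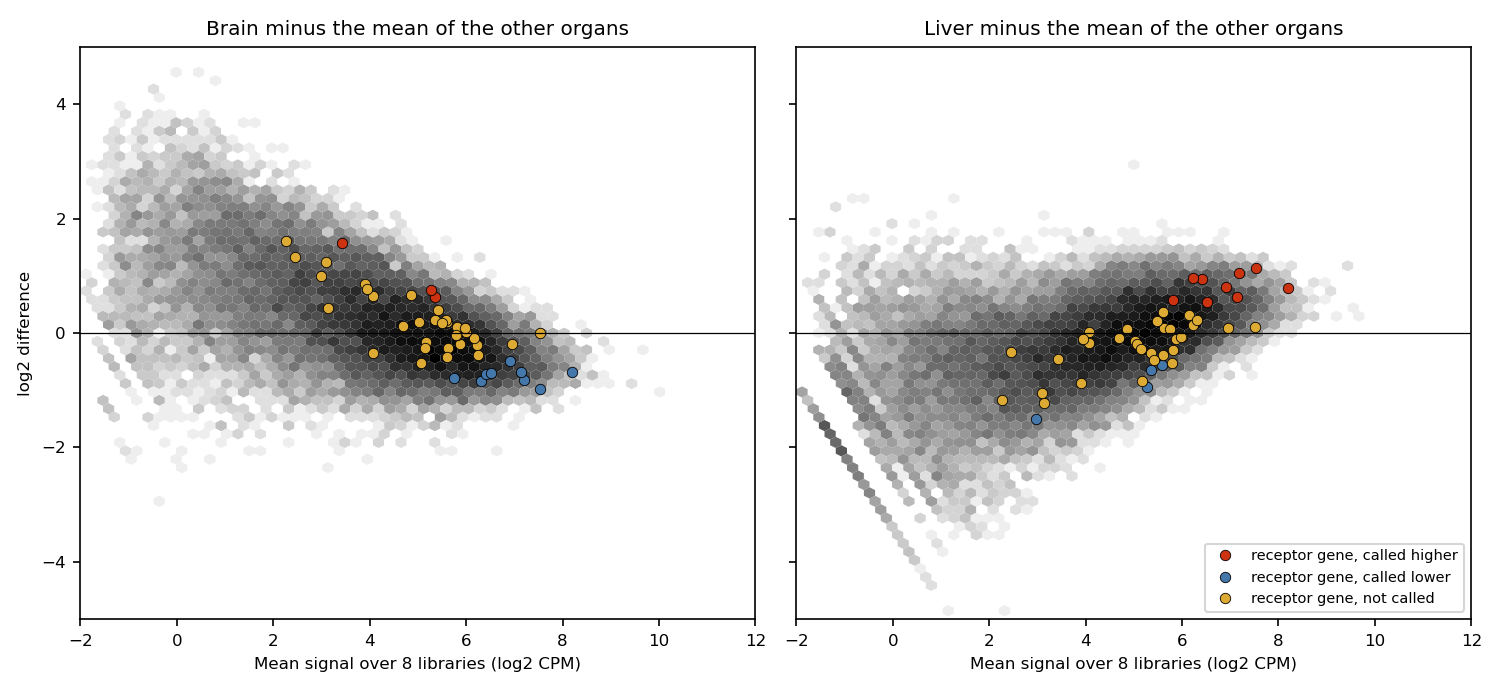
Difference of each organ from the other 3 (log2) against mean signal (log2 CPM) for brain and for liver. Grey hexagons count all 25982 genes tested on a log colour scale, and points are the 45 receptor genes, coloured by call. Receptor genes of high signal lie below 0 in brain and above 0 in liver.

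Promoter sequence is shown for 4 receptor genes whose signal differed in brain, to show how many methylatable CG steps lie just upstream of each. Gabra4 had the largest called gain in brain, and Grm2, Grm3 and Gabbr2 were chosen after their values were seen, as called genes with a window in RefSeq. Each is the 250 bases before the annotated start on the minus strand of GRCm38.p6, 5' to 3', from RefSeq, with each CG in capitals.
Gabra4: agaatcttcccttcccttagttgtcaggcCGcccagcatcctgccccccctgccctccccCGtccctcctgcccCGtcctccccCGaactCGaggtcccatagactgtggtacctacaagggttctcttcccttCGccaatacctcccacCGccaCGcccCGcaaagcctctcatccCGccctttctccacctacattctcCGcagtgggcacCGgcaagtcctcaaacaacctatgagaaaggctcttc
Gabbr2: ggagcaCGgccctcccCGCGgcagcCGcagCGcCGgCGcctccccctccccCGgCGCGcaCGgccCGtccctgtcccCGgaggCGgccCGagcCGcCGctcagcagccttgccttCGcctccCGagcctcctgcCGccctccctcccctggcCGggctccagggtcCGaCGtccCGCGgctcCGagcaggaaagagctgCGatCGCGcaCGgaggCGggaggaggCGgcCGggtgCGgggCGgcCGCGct
Grm2: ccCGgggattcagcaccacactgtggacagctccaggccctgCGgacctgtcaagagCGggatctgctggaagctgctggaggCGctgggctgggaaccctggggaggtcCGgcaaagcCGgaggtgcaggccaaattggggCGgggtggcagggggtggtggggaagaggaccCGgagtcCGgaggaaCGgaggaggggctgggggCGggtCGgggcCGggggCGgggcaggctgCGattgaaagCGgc
Grm3: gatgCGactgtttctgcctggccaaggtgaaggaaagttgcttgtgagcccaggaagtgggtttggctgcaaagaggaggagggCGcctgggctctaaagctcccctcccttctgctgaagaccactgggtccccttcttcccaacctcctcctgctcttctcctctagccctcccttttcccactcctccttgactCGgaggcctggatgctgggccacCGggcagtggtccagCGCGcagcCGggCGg
The Gabra4 window (chr5:71658309-71658558) holds 12 CG steps, and 33.5% of the 32851 windows of that length hold as many or more. It lies inside the neighbouring gene Gabrb1, whose annotated span overlaps that of Gabra4. The Gabbr2 window (chr4:46991715-46991964) holds 37, a number reached by 2.2% of windows. Grm2 (chr9:106656110-106656359) holds 16 and Grm3 (chr5:9725353-9725602) holds 8, reached by 25.4% and 43.0%. Windows were found for 32 of the 45 receptor genes, which have 39 windows with a median of 9 CG steps, against 6 over all windows, and 37 of the 39 hold at least 1 CG (motif CG, the same on both strands), against 92.1% of all windows. The table's signal is per gene, so none of it can be placed on these bases.

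AMPA receptors carry fast excitation, and none of the 4 genes was called in brain or in liver by limma, with 0 in brain at an unadjusted p under 0.05. Gria1 had the smallest p of the class in brain. It had 67.5 (FFPE) and 66.7 CPM (frozen) in brain, against 75.0 (FFPE) and 74.8 CPM (frozen) in heart, 77.5 (FFPE) and 76.8 CPM (frozen) in kidney, and 73.9 (FFPE) and 86.8 CPM (frozen) in liver. Both brain libraries lay below all 6 others, yet the difference was -0.20 ± 0.16 (SE, adjusted p = 0.353) and was not called. Gria1 spans chr11:57011571-57330244 (Entrez 14799), like all positions here on GRCm38.p6 and covering introns and exons together.

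NMDA receptors are the calcium-permeable, voltage-dependent glutamate channels, and 2 of their 7 genes were called lower in brain and higher in liver. Grin2b (chr6:135713221-136173615) encodes the GluN2B subunit, prominent in young forebrain. It had 204 (FFPE) and 206 CPM (frozen) in brain, against 250.5 (FFPE) and 233 CPM (frozen) in heart, 369.6 (FFPE) and 310.3 CPM (frozen) in kidney, and 464 (FFPE) and 422 CPM (frozen) in liver. Both brain libraries were the lowest of the 8 and both liver libraries the highest. Its difference was -0.69 ± 0.12 (SE, adjusted p = 0.00151) in brain and 0.79 ± 0.12 (SE, adjusted p = 0.000492) in liver. The brain call was lost without FFPE brain, at -0.60. Under quantile normalization the differences were -0.23 and 0.23 and neither was called.

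Grin3b (chr10:79970397-79977190) encodes GluN3B, an atypical subunit that binds glycine. It had 94.1 (FFPE) and 97.1 CPM (frozen) in brain, against 131 (FFPE) and 103 CPM (frozen) in heart, 145 (FFPE) and 182 CPM (frozen) in kidney, and 272 (FFPE) and 232 CPM (frozen) in liver. Brain was again below all other libraries and liver above them all. The difference was -0.81 ± 0.15 (SE, adjusted p = 0.0018) in brain, or 1.76-fold lower, and 1.04 ± 0.15 (SE, adjusted p = 0.000269) in liver, or 2.06-fold higher. Per kb of gene span, introns included, Grin3b had the most reads of the 45 genes, 66.1 as a mean of the libraries, and Gabrg3 the fewest, 0.0391. Grin3b also has the shortest span of the 45, 6.79 kb, against 670.8 kb for Gabrg3. Grin3b kept both calls when any single library was left out and under quantile normalization, which reduced them to -0.43 in brain and 0.54 in liver.

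Kainate receptors sit on both sides of the synapse. Of their 5 genes, 1 was called lower in brain (20%, against 12.8% of all genes) and 1 higher (20%, against 8.61%). Grik5 (chr7:25009849-25075694), which encodes the high-affinity GluK5 subunit, had 48.1 (FFPE) and 53.8 CPM (frozen) in brain, against 89.7 (FFPE) and 69.2 CPM (frozen) in heart, 93.6 (FFPE) and 126 CPM (frozen) in kidney, and 70.8 (FFPE) and 112 CPM (frozen) in liver. Both brain libraries were the lowest, with a difference of -0.84 ± 0.19 (SE, adjusted p = 0.00551). Grik1 (chr16:87895901-88290863), which encodes GluK1, had 65.7 (FFPE) and 48.4 CPM (frozen) in brain, against 49.2 (FFPE) and 48.1 CPM (frozen) in heart, 34.0 (FFPE) and 34.6 CPM (frozen) in kidney, and 31.8 (FFPE) and 26.6 CPM (frozen) in liver. Brain overlapped heart, and liver was below all others. The difference was 0.62 ± 0.20 (SE, adjusted p = 0.034) in brain and -0.64 ± 0.20 (SE, adjusted p = 0.0318) in liver. Grik4 (chr9:42518182-42945000), another high-affinity subunit, had 67.0 (FFPE) and 85.0 CPM (frozen) in liver, against 58.5 (FFPE) and 60.03 CPM (frozen) in brain, 40.5 (FFPE) and 54.0 CPM (frozen) in heart, and 37.3 (FFPE) and 58.9 CPM (frozen) in kidney. Both liver libraries were the highest, and its difference in liver was 0.57 ± 0.18 (SE, adjusted p = 0.0346). The Grik5 call was lost without FFPE brain (-0.88) or frozen brain (-0.81). Grik1 in brain was lost without FFPE brain (0.45), frozen brain (0.80) or any 1 heart or liver library (0.59 to 0.66), and in liver without FFPE brain or any 1 heart or liver library (-0.70 to -0.59). Grik4 was lost without frozen brain or any 1 heart or liver library (0.50 to 0.59) and under quantile normalization (0.33). Centring each library on its median ended both Grik1 calls (0.47 in brain, -0.445 in liver).

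Group I metabotropic receptors couple to phospholipase C. Of their 2 genes, 1 was called, higher in brain (8.61% of all genes) and lower in liver (7.42% of all genes). Grm5 (chr7:87583981-88135063) had 50.2 (FFPE) and 65.9 CPM (frozen) in brain, against 34.1 (FFPE) and 47.0 CPM (frozen) in heart, 45.8 (FFPE) and 37.0 CPM (frozen) in kidney, and 18.2 (FFPE) and 30.4 CPM (frozen) in liver. Both brain libraries were above all others and both liver libraries below all others. The difference was 0.76 ± 0.22 (SE, adjusted p = 0.0248) in brain, or 1.69-fold higher, and -0.95 ± 0.22 (SE, adjusted p = 0.00745) in liver. The brain call was lost without either brain library (0.81 without FFPE, 0.71 without frozen), without either heart library (0.73 without FFPE, 0.79 without frozen) and without FFPE liver (0.67), and when libraries were centred on their medians (0.61). The liver call was lost without FFPE liver (-0.68).

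Group II and III metabotropic receptors lower cyclic AMP and mostly act as presynaptic brakes. Both group II genes and 2 of the 4 group III genes were called lower in brain, and the same 4 were called higher in liver. Grm4 (chr17:27422387-27513826), of group III, had 168 (FFPE) and 73.8 CPM (frozen) in brain, against 200.5 (FFPE) and 112 CPM (frozen) in heart, 263 (FFPE) and 164 CPM (frozen) in kidney, and 454 (FFPE) and 246 CPM (frozen) in liver. Within FFPE and within frozen tissue brain was the lowest organ and liver the highest. FFPE brain overlapped frozen heart and frozen kidney, and frozen liver overlapped FFPE kidney, since each FFPE library exceeded its frozen counterpart. The brain difference was -0.97 ± 0.14 (SE, adjusted p = 0.000305), or 1.96-fold lower, and the liver difference was 1.14 ± 0.14 (SE, adjusted p = 8.42e-05), or 2.21-fold higher. Both calls held when any single library was left out and under quantile normalization (-0.58 in brain, 0.61 in liver).

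Grm3 (chr5:9485236-9725352), a group II receptor of neurons and glia, had 58.8 (FFPE) and 57.9 CPM (frozen) in brain, against 73.1 (FFPE) and 53.4 CPM (frozen) in heart, 97.3 (FFPE) and 107 CPM (frozen) in kidney, and 138 (FFPE) and 139.9 CPM (frozen) in liver. Liver was above all others, while brain overlapped frozen heart. Its difference was -0.72 ± 0.16 (SE, adjusted p = 0.0059) in brain and 0.95 ± 0.16 (SE, adjusted p = 0.000823) in liver. Grm2 (chr9:106644534-106656109), the other group II receptor, had 86.6 (FFPE) and 113 CPM (frozen) in brain, against 115 (FFPE) and 95.1 CPM (frozen) in heart, 157 (FFPE) and 242 CPM (frozen) in kidney, and 201 (FFPE) and 189 CPM (frozen) in liver. Brain overlapped heart, and liver overlapped kidney. Its difference was -0.68 ± 0.17 (SE, adjusted p = 0.0099) in brain and 0.63 ± 0.17 (SE, adjusted p = 0.0156) in liver. Grm6 (chr11:50850369-50866208), the receptor of retinal ON bipolar cells, had 104 (FFPE) and 83.4 CPM (frozen) in brain, against 88.1 (FFPE) and 96.9 CPM (frozen) in heart, 136 (FFPE) and 130.2 CPM (frozen) in kidney, and 197 (FFPE) and 171 CPM (frozen) in liver. Liver was above all others, and brain overlapped heart. Its difference was -0.49 ± 0.14 (SE, adjusted p = 0.0245) in brain and 0.81 ± 0.14 (SE, adjusted p = 0.00121) in liver. In brain all 3 calls were lost without FFPE brain (-0.68 for Grm3, -0.53 for Grm2, -0.63 for Grm6), without frozen brain (-0.76, -0.83 and -0.35 in that order) and under quantile normalization (-0.43, -0.29 and -0.12). In brain Grm6 was also lost without frozen heart (-0.44) and FFPE liver (-0.47). In liver Grm3 stayed called when any 1 library was left out and under quantile normalization (0.59), Grm6 was lost without FFPE liver (0.74), and Grm2 without frozen heart (0.53), FFPE liver (0.46) or frozen liver (0.79). Under quantile normalization Grm6 in liver was 0.36 and Grm2 0.17, neither called.

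**Figure D3:**
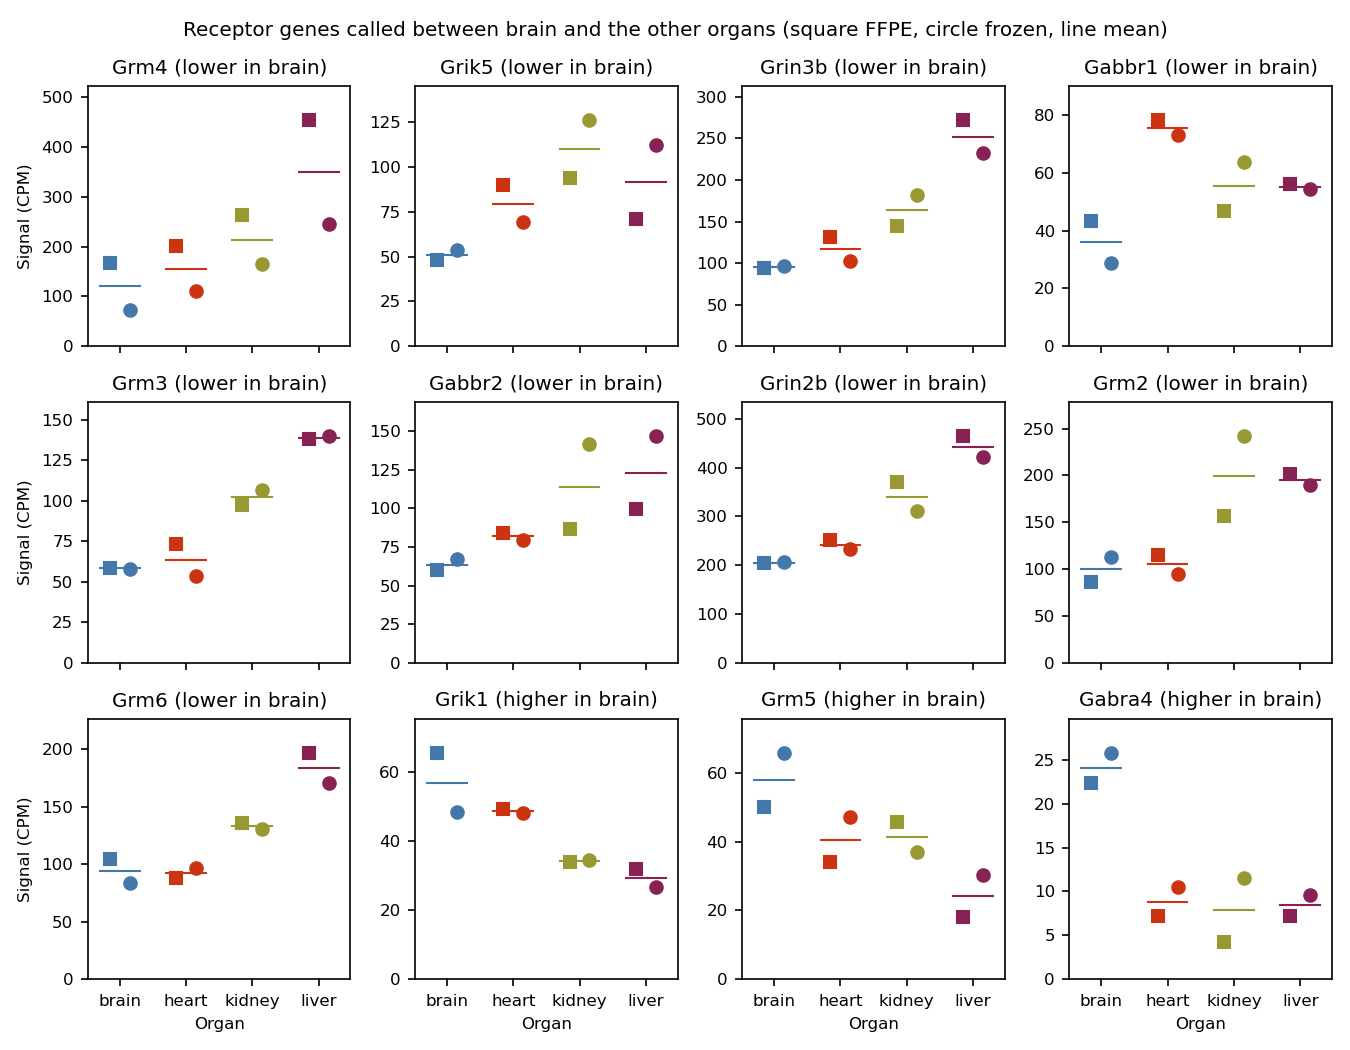
Signal (CPM, linear axis from 0) of the 12 receptor genes called between brain and the other organs, by organ. Squares are FFPE libraries, circles frozen libraries and lines the mean of both. The 2 brain points are the lowest for Grin2b, Grin3b, Grik5, Gabbr1 and Gabbr2 and the highest for Gabra4 and Grm5.

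GABA-A alpha subunits shape the benzodiazepine and GABA sites of the channel. Gabra4 (chr5:71569734-71658308), which encodes a subunit found mostly outside synapses, had 22.4 (FFPE) and 25.8 CPM (frozen) in brain, against 7.15 (FFPE) and 10.5 CPM (frozen) in heart, 4.25 (FFPE) and 11.5 CPM (frozen) in kidney, and 7.2 (FFPE) and 9.64 CPM (frozen) in liver. Both brain libraries stood above all 6 others. The difference was 1.57 ± 0.41 (SE, adjusted p = 0.0136), or 2.97-fold higher. It was the 1 call among 6 alpha genes in brain (16.7%, against 8.61% of all genes called higher). Without FFPE brain it was 1.28 and without frozen brain 1.85, neither called. Gabra2 (chr5:70958392-71095849), another alpha subunit, had 3.41 (FFPE) and 3.5 CPM (frozen) in liver, against 15.2 (FFPE) and 11.2 CPM (frozen) in brain, 12.3 (FFPE) and 8.42 CPM (frozen) in heart, and 5.67 (FFPE) and 10.0 CPM (frozen) in kidney. Liver was the lowest organ, on 9 to 12 reads a library, with a difference of -1.495 ± 0.48 (SE, adjusted p = 0.0395). That call was lost on leaving out any 1 brain, heart or liver library (-1.61 to -1.38), under quantile normalization (-0.93), with centred libraries (-1.30), with voom weights (-1.52) and with no filter on low values.

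Beta subunits are needed for nearly all GABA-A channels, and 0 of 3 genes were called in brain, with 1 at an unadjusted p under 0.05. Gabrb1 (chr5:71657921-72149572) had 66.3 (FFPE) and 57.1 CPM (frozen) in brain, against 45.7 (FFPE) and 48.1 CPM (frozen) in heart, 92.2 (FFPE) and 87.1 CPM (frozen) in kidney, and 131 (FFPE) and 116 CPM (frozen) in liver. Liver was above and heart below all other libraries. The difference was 0.95 ± 0.16 (SE, adjusted p = 0.000624) in liver, -0.91 ± 0.16 (SE, adjusted p = 0.00791) in heart and -0.38 ± 0.16 (SE, adjusted p = 0.0867) in brain, the last not called. Gabrb2 (chr11:42419515-42632591) had 30.7 (FFPE) and 41.5 CPM (frozen) in liver, against 52.9 (FFPE) and 54.6 CPM (frozen) in brain, 65.9 (FFPE) and 60.4 CPM (frozen) in heart, and 38.8 (FFPE) and 48.3 CPM (frozen) in kidney. Its liver values overlapped FFPE kidney, and its difference was -0.56 ± 0.19 (SE, adjusted p = 0.0474). The heart call of Gabrb1 was the 1 lower call in heart (2.22%, against 1.97% of all genes), where no receptor gene was called higher (0.162% of all genes) although 3 had an unadjusted p under 0.05 upward. It was lost without FFPE heart (-0.79) or frozen heart (-1.02), while its liver call held when any 1 library was left out and under quantile normalization (0.62). The liver call of Gabrb2 was lost on leaving out any 1 brain, heart or liver library (-0.74 to -0.39), with centred libraries (-0.36) and with voom weights (-0.54).

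In kidney 1 receptor gene was called lower (2.22%, against 0.566% of all genes) and none higher (0.897% of all genes) by limma, with 8 at an unadjusted p under 0.05 upward. Gamma subunits anchor GABA-A receptors at synapses. Gabrg3 (chr7:56716463-57387215), the class member of smallest p in brain, had 11.7 (FFPE) and 22.5 CPM (frozen) in brain, against 8.73 (FFPE) and 8.07 CPM (frozen) in heart, 8.51 (FFPE) and 6.68 CPM (frozen) in kidney, and 3.41 (FFPE) and 6.72 CPM (frozen) in liver. Both brain libraries were the highest, but the difference of 1.25 ± 0.47 (SE, adjusted p = 0.0693) was not called.

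Gabrq (chrX:72825163-72842607), which encodes the theta subunit, had 11.9 (FFPE) and 10.0 CPM (frozen) in brain, against 6.75 (FFPE) and 2.46 CPM (frozen) in heart, 1.89 (FFPE) and 8.5 CPM (frozen) in kidney, and 2.27 (FFPE) and 2.63 CPM (frozen) in liver. Both brain libraries were the highest, on counts of 4 to 40 reads over the 8 libraries, and the difference of 1.61 ± 0.68 (SE, adjusted p = 0.096) was not called. The rho subunits form GABA channels of the retina, and none of the 3 was called in brain by limma, with 0 at an unadjusted p under 0.05. Gabrr1 (chr4:33132556-33163588) had the smallest p of them. It had 45.1 (FFPE) and 33.4 CPM (frozen) in brain, against 55.2 (FFPE) and 48.8 CPM (frozen) in heart, 35.9 (FFPE) and 59.5 CPM (frozen) in kidney, and 54.5 (FFPE) and 62.5 CPM (frozen) in liver. Brain overlapped kidney, and its difference was -0.42 ± 0.22 (SE, adjusted p = 0.172).

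Both GABA-B genes were called lower in brain, against 12.8% of all genes. That share was 40.9% in the fifth of genes with the highest signal, which holds Gabbr2. It was 16% in the fifth just below, which holds Gabbr1. Gabbr1 (chr17:37045966-37074305) binds GABA. It had 43.3 (FFPE) and 28.8 CPM (frozen) in brain, against 78.2 (FFPE) and 73.0 CPM (frozen) in heart, 46.8 (FFPE) and 63.8 CPM (frozen) in kidney, and 56.1 (FFPE) and 54.3 CPM (frozen) in liver. Gabbr2 (chr4:46662318-46991714) couples the pair to its G protein. It had 59.7 (FFPE) and 67.1 CPM (frozen) in brain, against 84.2 (FFPE) and 79.3 CPM (frozen) in heart, 86.5 (FFPE) and 142 CPM (frozen) in kidney, and 99.6 (FFPE) and 147 CPM (frozen) in liver. For each gene both brain libraries were the lowest of the 8. The difference was -0.79 ± 0.20 (SE, adjusted p = 0.0118) for Gabbr1 and -0.70 ± 0.17 (SE, adjusted p = 0.00921) for Gabbr2 in brain. In liver Gabbr2 differed by 0.54 ± 0.17 (SE, adjusted p = 0.0356). The Gabbr1 call was lost without frozen brain, at -0.45. The brain call of Gabbr2 was lost without FFPE brain (-0.81) or frozen brain (-0.59), and its liver call without frozen brain (0.50), frozen heart (0.45), FFPE liver (0.69) or frozen liver (0.39). Under quantile normalization Gabbr2 was -0.41 in brain and 0.19 in liver, neither called.

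Brain libraries lay below all 6 others for 6 receptor genes, against 11.7% of all genes, and above them for 4, against 16.5%. Liver libraries lay above all others for 6, against 11.7%, and below them for 5, against 10.3%. Heart libraries lay above all others for 2 receptor genes, against 4.78% of all genes, and below them for 1, against 3.47%. Kidney libraries lay above all others for 1, against 3.53%, and below them for 1, against 4.38%.

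Many GABA-A genes sit in clusters that mix an alpha, a beta and a gamma gene. The chromosome 5 cluster (chr5:70751047-72149572) holds Gabrg1, Gabra2, Gabra4 and Gabrb1. Its members differed in sign: in brain Gabra4 was called higher while Gabrb1, next to it, was -0.38 and not called, and in liver Gabra2 was called lower and Gabrb1 higher. The annotated Gabra4 and Gabrb1 genes overlap by 388 bases. How reads in this overlap were assigned is not stated. On chromosome 11 Gabrb2, called lower in liver, lies near Gabra6, which was not called in any organ. Gabrg3 and Gabra5 on chromosome 7, the X cluster of Gabre, Gabra3 and Gabrq and the chromosome 4 pair of Gabrr2 and Gabrr1 were not called in any organ by limma. The 1092 X-linked genes tested had a median brain difference of 0.30, against 0.08 for autosomal genes, and -0.28 against -0.08 in liver.

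**Figure D4:**
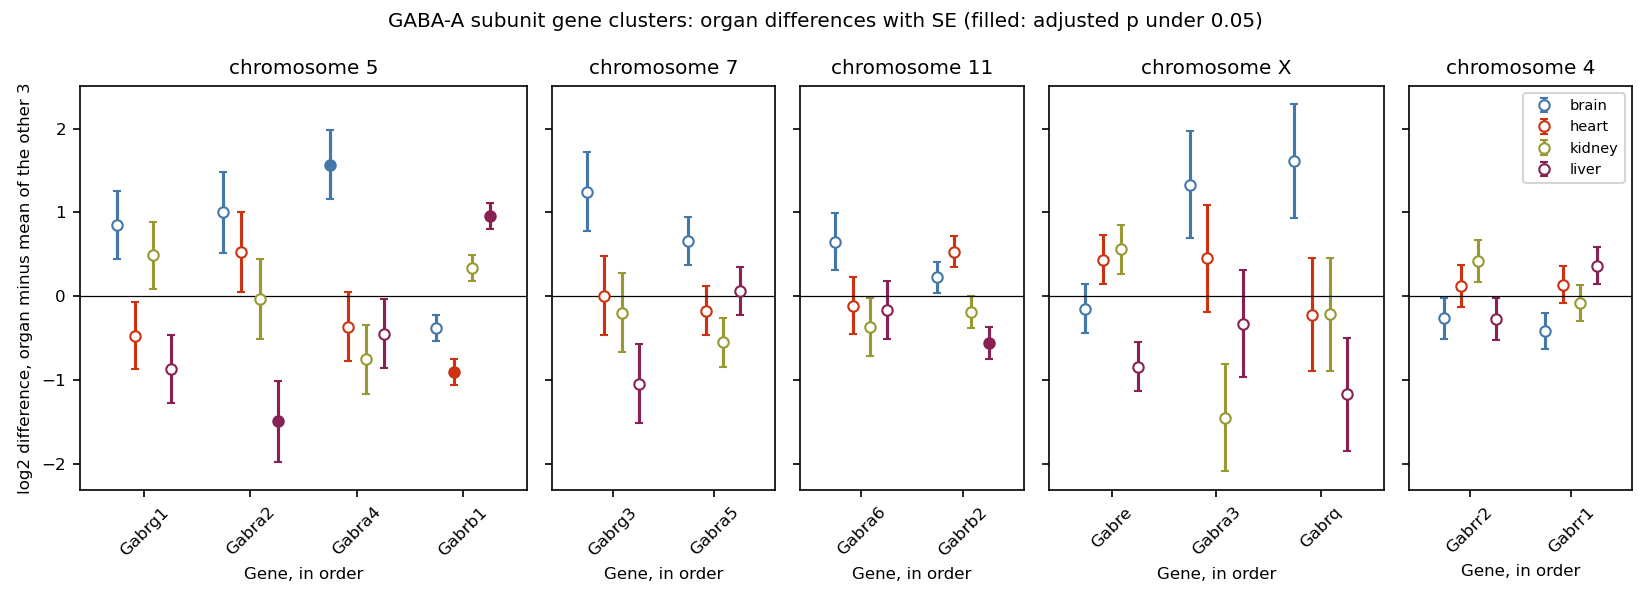
Organ differences (log2, organ minus the mean of the other 3) of GABA-A subunit genes that lie in clusters, in gene order, with SE bars. Filled points have an adjusted p under 0.05. On chromosome 5 the filled points are Gabra4 in brain (1.57), Gabra2 in liver (-1.495) and Gabrb1 in heart (-0.91) and liver (0.95).

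FFPE and frozen libraries were compared over the 4 organs. Grm4 was the 1 receptor gene called higher in FFPE (2.22%, against 0.62% of all genes), and none was called lower (0.735% of all genes), with 3 at an unadjusted p under 0.05 downward. The Grm4 difference, FFPE minus frozen, was 0.90 ± 0.12 (SE, adjusted p = 0.000395), or 1.86-fold higher. It was 1.18 in brain, 0.84 in heart, 0.68 in kidney and 0.88 in liver, so FFPE was higher in 4 of 4 organs, and the call held when any 1 library was left out. Gabra3 (chrX:72432676-72656919), which encodes an X-linked alpha subunit, had the lowest FFPE minus frozen value of the 45 genes. It had 5.97 CPM in FFPE and 19.2 CPM in frozen brain, 5.56 and 8.07 CPM in FFPE and frozen heart, 0.473 and 9.11 CPM in FFPE and frozen kidney, and 2.65 and 7.30 CPM in FFPE and frozen liver. Every FFPE library was below every frozen library, against 1.84% of all genes with that pattern, and no receptor gene had every FFPE library above every frozen one, against 1.31%. The difference of -1.82 ± 0.55 (SE, adjusted p = 0.172) was not called.

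Partner genes of the receptors, from lists chosen with earlier results of these data known, were compared in the same way. The brain and liver differences followed mean signal, and the lists were not matched to other genes for it. Of 40 auxiliary and scaffold genes, 14 (35.0%, against 12.8% of all genes) were called lower and 5 (12.5%, against 8.61%) higher in brain, with a median of -0.21, against 0.11 for all genes. The 4 lower ones of smallest p were Nlgn2, a postsynaptic adhesion protein of inhibitory synapses (-1.41 ± 0.16 SE), Cacng4, an auxiliary subunit of AMPA receptors (-1.56 ± 0.21), Nlgn3, a further neuroligin (-1.44 ± 0.19), and Dlg4, which encodes the scaffold PSD-95 (-0.996 ± 0.15), with adjusted p = 8.2e-05 to 0.000406. Higher in brain was Shank1, a postsynaptic scaffold (0.79 ± 0.23 SE, adjusted p = 0.0223). Of 20 genes of transmitter synthesis and transport, 1 (5.0%) was called lower, Glul, which encodes glutamine synthetase (-1.09 ± 0.17 SE), and 3 (15.0%) higher, among them Slc6a12, a carrier of betaine and GABA (1.28 ± 0.27 SE, adjusted p = 0.00397) and Slc6a13, a GABA carrier (0.81 ± 0.22 SE, adjusted p = 0.018). Of 30 genes of other ligand-gated channels, 4 were called lower and 4 higher in brain (13.3% each). In liver, where 11.8% of all genes were called higher and 7.42% lower, the scaffold list had 11 called higher (27.5%) and 1 lower (2.5%). The transport list had 1 higher (5.0%) and 2 lower (10.0%) there, and the other channels 8 higher (26.7%) and 6 lower (20.0%).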

How the data were processed

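MeDIP-seq was done on 4 mouse organs, FFPE and frozen. The submitters' processing notes name mm10, Bowtie2, featureCounts and limma. Versions, the counted feature (exons or gene bodies), strand and the handling of multiple matches are not stated. The deposited values are log2 counts scaled to a library size (log2 CPM) that differs from the total of reads on genes. They cover 27179 genes in 8 columns, 1 for each organ and preservation. The labels list 32 samples, 16 with the 5mC antibody and 16 Input. Whether a column is 1 library or pooled samples is not given. Input was not analysed here. Every deposited log2 value stepped back to a whole number of reads after 0.5 was subtracted (tolerance 1e-04), and these reads gave depth, CPM and read counts; PCR copies are not independent molecules, so depth covers counting error only. No column was unused. The 1275 rows that have no gene symbol held 1.31 to 1.8% of the reads.

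The 25982 genes that reached 1 CPM in 2 or more libraries (1197 did not) were fitted as organ plus preservation with limma 3.58.1 in R 4.3.3 (5 coefficients, 3 residual and 13.1 prior degrees of freedom, variance trend on signal), with two-sided tests and Benjamini-Hochberg adjustment over all genes tested. The script was tested on simulated data. Alternatives were other filters, an offset of 2 reads, quantile normalization, centring, voom weights, no variance trend and leaving out each library. A direct count model was not the main test because the deposited unit is log2.

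Every called receptor gene was named, plus in each class the gene of smallest p in brain, genes of highest and lowest signal per kb, and up to 4 partner genes in each direction; some genes are not reported here by name, though the counts include them. Receptor genes, lists and promoters were chosen with earlier results of these data known. Genes were placed by Entrez ID on RefSeq GRCm38.p6 (25275 of 27179 matched, 93%; all 45 receptor genes). Span and mean reads had a Spearman rho of 0.61 over 25004 genes, so the strongest and weakest genes were named per kb of span. Over the receptor genes rho was 0.12, so their order per kb depends largely on span. Mean signal per gene, by which genes were ordered and binned, was not corrected for length.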

Additional observations from a re-analysis of the deposited data

Results flagged for a closer look

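For the 12 pairs of gene and organ named below, the organ was the highest of the 4 in FFPE tissue and the lowest in frozen tissue, or the reverse. Each value below is the organ's difference from the mean of the other 3 in FFPE minus that in frozen tissue, on the log2 scale. Each cell of this design is 1 library, so the difference was not tested. Shares over all 45 receptor genes include genes not named here. The share with this pattern was 15.6% in heart (7 genes), against 3.58% of all genes, and 8.89% in kidney (4 genes), against 7.83%. It was 4.44% against 3.76% in brain and 4.44% against 4.49% in liver.

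In heart, the named receptor genes that stood highest in FFPE and lowest in frozen tissue had values of 1.19 for Grik2, 1.16 for Gabra6, 0.85 for Gria3, 0.72 for Grin2c and 0.40 for Grin2a. In FFPE tissue Grik2 was 0.47 above the other organs in heart, and in frozen tissue it was -0.73 against them. In kidney the order was the opposite, lowest in FFPE and highest in frozen tissue, at -0.61 for Gria3, -0.73 for Gria4 and -0.72 for Grin2c. In liver the same order was seen, with -0.73 for Gria2 and -0.74 for Gabrd. In brain Grin1, the obligatory NMDA receptor subunit, was lowest in FFPE and highest in frozen tissue (-1.22), and Grik3 the reverse (0.24). Gria3 and Grin2c showed it in both heart and kidney, whose comparisons share all 8 libraries. Some of these ranks rest on near ties. In frozen tissue Grik3 had 168.8 CPM in brain and 169.4 CPM in kidney, and Grin1 had 22.5 CPM in brain and 22.2 CPM in liver. The heart ranks of Grin2a were close in both: 63.13 CPM against 62.85 CPM in kidney (FFPE), and 55.81 CPM against 56.69 CPM in brain (frozen). Gabra6 had 22.63 CPM in FFPE heart and 22.4 CPM in FFPE brain. Grin2c had 54.4 CPM in frozen heart and 56.96 CPM in frozen liver.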

How the results depend on the processing

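None of the 28 gene calls reversed under any alternative run. All 28 were kept with an offset of 2 reads and with a filter of 5 CPM in 4 libraries, 26 with no filter, 25 with voom weights, 23 with centred libraries, 16 with quantile normalization and 0 with no variance trend; the cause was not tested. Without the variance trend, counts of receptor genes called were 0 for brain higher, 0 for brain lower, 0 for heart lower, 0 for kidney lower, 0 for liver higher, 0 for liver lower and 0 for FFPE higher, and no other gene was called in the organ comparisons, while 15 genes were higher and 24 lower in FFPE. Quantile normalization gave 5 higher and 4 lower in brain, 1 higher in heart (Gabbr1), 0 lower in kidney, and 4 higher in liver. Centring gave 1 higher in brain, 4 lower in heart and 1 lower in liver. Over all genes centring gave 1603 higher and 4875 lower in brain, against 2238 and 3333 as reported, and 4832 higher and 1240 lower in liver, against 3056 and 1929; it moved the median of all genes from 0.11 to -0.04 in brain and from -0.10 to 0.10 in liver. Voom weights gave 6 higher in brain, 2 lower in heart, 4 higher and 0 lower in kidney, and 2 lower in liver. With no filter kidney had 0 lower.

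Leaving out a library gave 0 to 5 higher and 3 to 11 lower in brain, 0 to 1 higher and 0 to 6 lower in heart, 0 to 4 higher and 0 to 2 lower in kidney, 5 to 10 higher and 0 to 7 lower in liver, and 1 higher and 0 lower in FFPE each time. In brain the 3 higher calls became 0 without either brain library, 1 without either heart library or FFPE liver, and 5 without either kidney library, and the 9 lower calls became 3 without either brain library. In heart the lower count was 0 without either heart library, 6 without FFPE kidney and 3 without frozen kidney, and the higher count 1 without frozen kidney. In kidney the higher count was 4 and the lower count 2 without FFPE kidney, and the lower count was 0 without frozen kidney, frozen brain or any 1 heart or liver library. In liver the higher count was 5 without FFPE liver. The lower count there was 7 without either kidney library, 1 without FFPE brain or either heart library, 2 without frozen liver and 0 without FFPE liver. An organ left with 1 library is assumed to vary like the others. No paired analysis was possible because the columns carry no replicate number. Exon length was not run, since the annotation used gives none. Low counts limit Gabra3 (1 read in its lowest library), Gabrq (4 reads) and Gabra2 (9 reads).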
